A study of Mus musculus with 6 samples.

Results

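*Tie1*, which encodes a receptor tyrosine kinase of endothelial cells, was compared in lip RNA with 9 other genes of blood and lymphatic vessels. The 10 genes were *Tie1*, its relative *Tek*, the ligands *Angpt1* and *Angpt2*, the VEGF receptors *Kdr*, *Flt1* and *Flt4*, and the vessel markers *Pecam1*, *Cdh5* and *Emcn*. They were picked by name out of 26814 gene symbols in the count table, because *Tie1* was more than 10-fold higher in the knockout libraries. The change of *Tie1* between genotypes is therefore given as a description without a test. The 9 other genes were not picked for their own change and were tested. All 10 genes passed the filter on low counts, which left 15009 genes.

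RNA-Seq was carried out on the top lip of 3 *Gtf2ird1* knockout mice (KO) and 3 wild type mice (WT), with 1 library per mouse. All mice were adult females on a C57BL/6J background. The KO mice were homozygous for the null allele Gtf2ird1 tm1Hrd, a germline mutation present in every cell, and no treatment is named. Whole lip holds epidermis, dermis, skeletal muscle and vessels together. In such bulk samples fewer cells of a type and less RNA per cell cannot be told apart. The p-values measure the spread between mice.

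The libraries held between 20164081 and 29491767 counts on genes, and 3 counts, the limit that a count of 0 allows, were worth between 0.0986 and 0.154 CPM (counts relative to library size after TMM scaling, a correction for library composition). The targeted gene *Gtf2ird1* lay between 70.2 and 78.2 CPM in the WT libraries and between 144 and 166 CPM in the libraries labelled KO. It was thus higher, not lower, under the label KO (log2 fold change 1.11, adjusted p = 0.0018, edgeR quasi-likelihood test), and it overlaps *Gm42882* on the opposite strand. A count over the whole gene does not tell an intact transcript from one of the targeted allele, and the cause of the rise was not tested. By the study's methods, tail biopsies were collected to check the genotypes. KO and WT stand below for libraries by their label only. The third KO library stood apart from the other KO libraries. With it left out, 2496 genes were called higher and 2395 lower in KO, and with any other library left out between 208 and 476 were called higher and between 18 and 62 lower. Results that rest on it are given with and without it.

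Endothelial cells line the vessels and carry a pair of related receptors, TIE1 and TEK (also called TIE2). ANGPT1, made largely by cells around the vessel, activates TEK and keeps vessels quiet and tight. ANGPT2, made by the endothelium itself, can block or activate TEK depending on the context. TIE1 binds no angiopoietin strongly by itself, but it associates with TEK and modulates its signal, and its transcript is widely used as an endothelial marker. The VEGF receptors KDR, FLT1 and FLT4 drive or restrain vessel growth, and PECAM1, CDH5 and EMCN are surface and junction proteins of the same cells.

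*Tie1* (ENSMUSG00000033191) is annotated on the minus strand of chromosome 4 from 118471191 to 118490061 in GRCm38, and its exons cover 4917 bases when the 3 annotated transcripts are merged. No other annotated gene overlaps it. *Tek* (ENSMUSG00000006386) lies on the plus strand of the same chromosome, from 94739289 to 94874976. The stretches before the start sites of these receptor genes are shown because *Tie1* picked the set and *Tek* is its closest relative. They are the 250 bases upstream of the RefSeq start (GRCm38.p6), written 5′ to 3′ on the strand of the gene, with the core letters of ETS family binding sites, GGAA or TTCC on the other strand, in capitals. ETS proteins are transcription factors, several of them active in endothelium.
Tie1, chr4:118489850-118490099, minus strand: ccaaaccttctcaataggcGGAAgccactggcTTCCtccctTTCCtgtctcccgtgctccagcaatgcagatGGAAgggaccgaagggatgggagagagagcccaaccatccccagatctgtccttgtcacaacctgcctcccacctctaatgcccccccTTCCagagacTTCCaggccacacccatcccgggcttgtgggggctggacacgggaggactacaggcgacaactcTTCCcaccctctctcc
Tek, chr4:94739039-94739288, plus strand: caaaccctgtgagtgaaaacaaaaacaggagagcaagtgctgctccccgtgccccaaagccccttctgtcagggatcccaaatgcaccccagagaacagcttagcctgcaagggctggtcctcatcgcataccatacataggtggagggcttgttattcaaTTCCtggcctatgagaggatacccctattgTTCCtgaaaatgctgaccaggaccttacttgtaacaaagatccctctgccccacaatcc
The *Tie1* stretch held 7 matches and the *Tek* stretch 2. Upstream sequences were found for 6 of the 10 genes, and *Kdr*, *Flt1* and *Emcn* held 4 matches each and *Flt4* 2. Over 32851 windows of the same length before mouse start sites, 93.4% held the core on either strand, with a median of 3 matches. The letters GGATTA, a core of motifs attributed to GTF2IRD1, were searched on both strands. They occurred in none of the 6 stretches and in 6.25% of all windows. A match is only a description of the letters. The longest annotated *Tie1* transcript begins 212 bases upstream of the RefSeq start, inside the stretch shown.

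*Tie1* had 33.3, 29.5 and 40.4 CPM in WT libraries 1 to 3 and 435, 394 and 374 CPM in KO libraries 1 to 3. Every KO library was far above every WT library, and the libraries of one genotype lay close together. The counts behind these levels ran from 694 to 917 in the WT libraries and from 8185 to 11988 in the KO libraries. The mean level was 34.4 ± 5.55 CPM in WT and 401 ± 31.0 CPM in KO (SD, n = 3 mice per genotype), a ratio of 11.7. The log2 fold change of the fit was 3.54. The lowest KO library was 9.26 times the highest WT library, while the highest and lowest library of a genotype differed by 1.16 times in KO and 1.37 times in WT. Among the 10345 tested genes with a WT mean of at least 10 CPM, *Tie1* ranked 2 by log2 fold change, and among all 15009 it ranked 142. Its place by mean CPM moved from 5847 in WT to 292 in KO. No transcript of another gene aligned to those of *Tie1* over 100 bases or more at 95% identity.

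**Figure D1:**
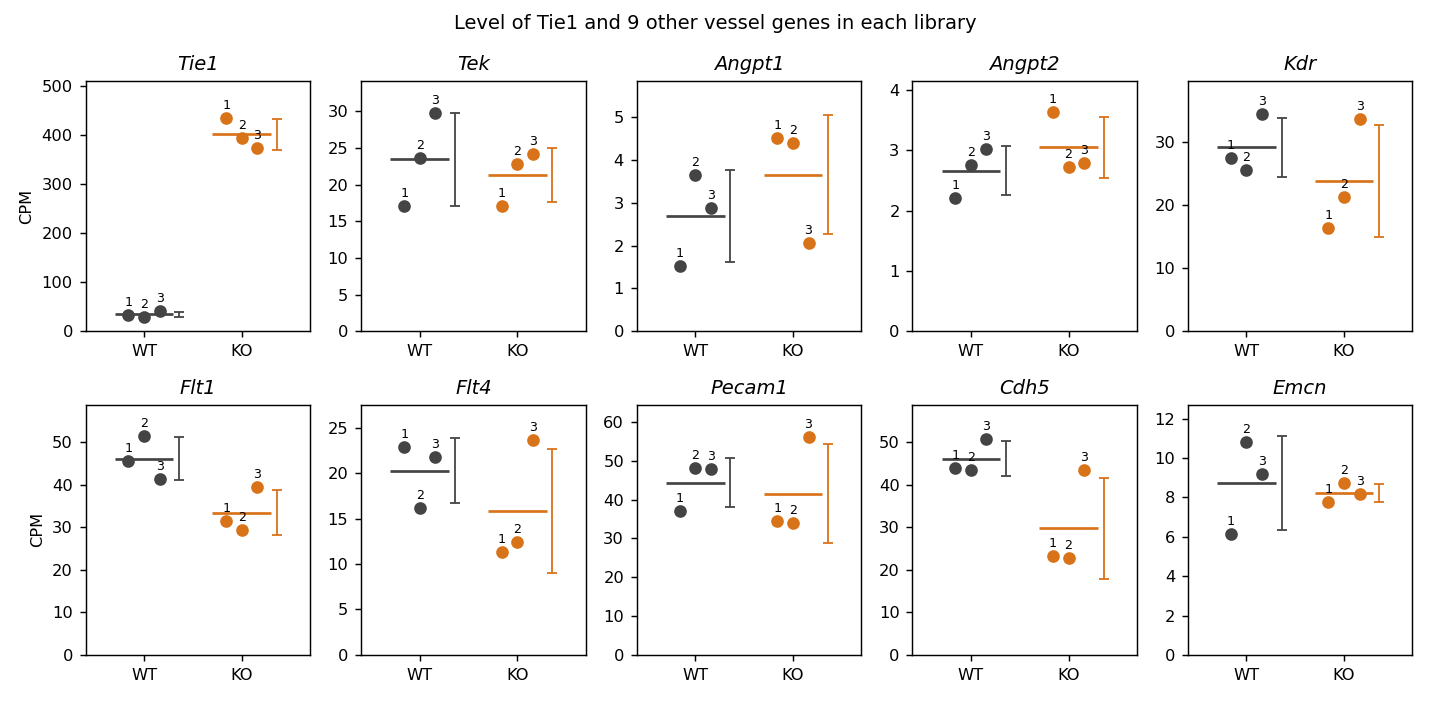
Level of each of the 10 genes in CPM (vertical axes, each from 0), with a point per library numbered by replicate, a horizontal line at the mean and a bar of 1 SD on either side, for 3 WT and 3 KO mice. *Tie1* lies between 29.5 and 40.4 CPM in WT and between 374 and 435 CPM in KO, while the genotypes overlap in 8 of the 9 other genes, and *Flt1* is lower in KO without overlap, where 31.5% of all tested genes did not overlap.

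Among the partners of *Tie1*, its relative *Tek*, the angiopoietin receptor, had 17.0, 23.6 and 29.7 CPM in the WT libraries and 17.1, 22.8 and 24.1 CPM in the KO libraries. All KO values of *Tek* lay inside the WT range. It changed by -0.14 on the log2 scale (standard error 0.23, adjusted p = 0.716, edgeR quasi-likelihood test adjusted over all tested genes), with a 95% confidence interval from a ratio of 0.630 to one of 1.31. The sign of this small change was not stable, since *Tek* was at 0.067 without WT replicate 3 and at 0.062 without KO replicate 1.

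The ligand genes were read from few counts. *Angpt1*, the activating ligand of TEK, had 1.52, 3.66 and 2.88 CPM in WT and 4.50, 4.41 and 2.06 CPM in KO (log2 change 0.45, standard error 0.39, adjusted p = 0.462, edgeR). The third KO library lay between the WT values and the other KO libraries above them. *Angpt2*, the context-dependent ligand, had 2.21, 2.76 and 3.01 CPM in WT and 3.63, 2.73 and 2.79 CPM in KO (0.19, standard error 0.23, adjusted p = 0.590, edgeR). Only KO1 lay outside the WT range of *Angpt2*. *Angpt2* lies inside *Mcph1* and *Angpt1* overlaps *Gm17473*, both on the opposite strand, and the counting mode for strand is not given in the sources used here. *Gm17473* also shares sequence of read length with *Angpt1*.

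A list of 12 further genes of the pathway held the ligand *Angpt4*, the phosphatase *Ptprb* that acts on TEK, the protease *Adam17*, the adaptor *Dok2*, the downstream kinase and factor genes *Akt1* and *Foxo1*, and others. All 12 were tested and none was called in either direction by edgeR's quasi-likelihood test, against 6.47% of all tested genes. At an unadjusted p under 0.05 there were 3 of 12, against 29.6% of all genes. By log2 fold change 9 lay below 0 and 3 above, with a median of -0.27 where the median of all genes was -0.02. The lowest was *Klf2*, a flow-responsive factor of endothelium (-0.84, adjusted p = 0.0994), and the highest was *Adam17*, which cleaves membrane proteins (0.48, adjusted p = 0.103). edgeR's exact test called 2 of the 12 lower (*Foxo1* and *Klf2*), DESeq2 called 1 higher (*Adam17*) and limma-voom called none. Without KO replicate 3 the quasi-likelihood test called 4 lower and 1 higher, where it called 33.0% of all tested genes in either direction.

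Of the VEGF receptor genes, *Kdr*, the main signalling receptor for VEGFA, had 27.5, 25.5 and 34.4 CPM in WT and 16.4, 21.3 and 33.6 CPM in KO (log2 change -0.30, standard error 0.26, adjusted p = 0.471, edgeR). KO1 and KO2 lay below every WT library and KO3 within them. *Flt1*, a high-affinity receptor that also acts as a trap for ligand, had 45.6, 51.4 and 41.3 CPM in WT and 31.5, 29.3 and 39.4 CPM in KO. It was lower in every KO library than in every WT library, the one gene of the 9 whose genotypes did not overlap, where 18.1% of all tested genes were lower without overlap. It changed by -0.47 on the log2 scale (standard error 0.16, adjusted p = 0.107, edgeR), which missed the threshold. *Flt4*, the receptor for VEGFC that is prominent in lymphatic endothelium, had 22.9, 16.2 and 21.7 CPM in WT and 11.3, 12.4 and 23.7 CPM in KO (-0.36, standard error 0.29, adjusted p = 0.434, edgeR). Here KO1 and KO2 again lay below all WT libraries, while KO3 was the highest of the 6. *Flt4* shares sequence of read length with *Olfr1372-ps1*.

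The genes of the VEGF ligands and coreceptors, *Vegfa*, *Vegfb*, *Vegfc*, *Figf*, *Pgf*, *Nrp1* and *Nrp2*, were all tested, and none of the 7 was called by edgeR's quasi-likelihood test, against 6.47% of all tested genes. At an unadjusted p under 0.05 there were 4 of them, against 29.6%. All 7 log2 fold changes lay below 0, where 52.0% of all tested genes did, with a median of -0.52. They ran from -0.86 in *Vegfb*, a ligand of FLT1 (adjusted p = 0.0992), to -0.28 in *Nrp1*, a coreceptor of KDR (adjusted p = 0.326). Their summed level lay between 287 and 306 CPM in WT and between 199 and 247 CPM in KO. edgeR's exact test called 2 of them lower (*Vegfb* and *Vegfc*), and DESeq2 and limma-voom called none. Without KO replicate 3 the quasi-likelihood test called 3 lower, *Vegfb*, *Vegfc* and *Nrp2*, where it called 16.2% of all tested genes lower.

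Among the vessel markers, *Pecam1*, an adhesion molecule of endothelium, platelets and leukocytes, had 37.1, 48.1 and 47.9 CPM in WT and 34.5, 34.0 and 56.2 CPM in KO (log2 change -0.09, standard error 0.22, adjusted p = 0.801, edgeR). KO1 and KO2 lay below the WT libraries and KO3 above them. Its transcripts share stretches of read length with those of 22 other genes, so some reads may not have been assigned uniquely. *Cdh5*, the VE-cadherin of endothelial junctions, had 44.0, 43.4 and 50.9 CPM in WT and 23.2, 22.7 and 43.5 CPM in KO. KO1 and KO2 were well below the WT libraries, and KO3 was level with the lowest of them. *Cdh5* changed by -0.63 on the log2 scale (standard error 0.26, adjusted p = 0.150, edgeR), the lowest of the 9 genes. *Cdh5* overlaps *Gm29682* on the opposite strand. *Emcn*, a sialomucin of venous and capillary endothelium, had 6.13, 10.8 and 9.18 CPM in WT and 7.78, 8.71 and 8.19 CPM in KO (-0.08, standard error 0.23, adjusted p = 0.833, edgeR). All KO values of *Emcn* lay inside the WT range.

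None of the 9 genes other than *Tie1* was called by edgeR's quasi-likelihood test, which called 4.38% of tested genes higher and 2.09% lower. At an unadjusted p under 0.05 there were 2 of 9, *Flt1* and *Cdh5*, against 29.6% of all tested genes. edgeR's exact test, DESeq2 and limma-voom, which called 14.9%, 14.2% and 6.3% of the genes they tested, also called 0 of the 9. The log2 fold change was below 0 in 7 genes and above 0 in 2, with a median of -0.14. The highest upper bound of the 95% confidence intervals was a ratio of 2.57, for *Angpt1*. A missed threshold does not show that these genes were equal between genotypes.

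The third KO library weighed on these results. It was the highest of the KO libraries in 6 of the 9 genes and lay below all WT libraries in 1 of them, while KO1 and KO2 lay below all WT libraries in 5 each. Shares of all tested genes for these counts were not computed, so they are a description. Without KO replicate 3, edgeR's quasi-likelihood test called 4 of the 9 lower, where it called 16.2% of all tested genes lower and 33.0% in either direction. The log2 fold changes were then -1.002 in *Cdh5* (adjusted p = 0.0018), -0.77 in *Flt4* (adjusted p = 0.0147), -0.62 in *Kdr* (adjusted p = 0.0311) and -0.60 in *Flt1* (adjusted p = 0.0154). No gene of the 9 was called higher there. The summed level of the 7 genes other than *Tie1* and the ligands was 200, 219 and 235 CPM in WT and 142, 151 and 229 CPM in KO. *Tie1* itself was hardly affected by the choice of libraries, with a log2 fold change between 3.50 and 3.67 when each was left out in turn.

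**Figure D2:**
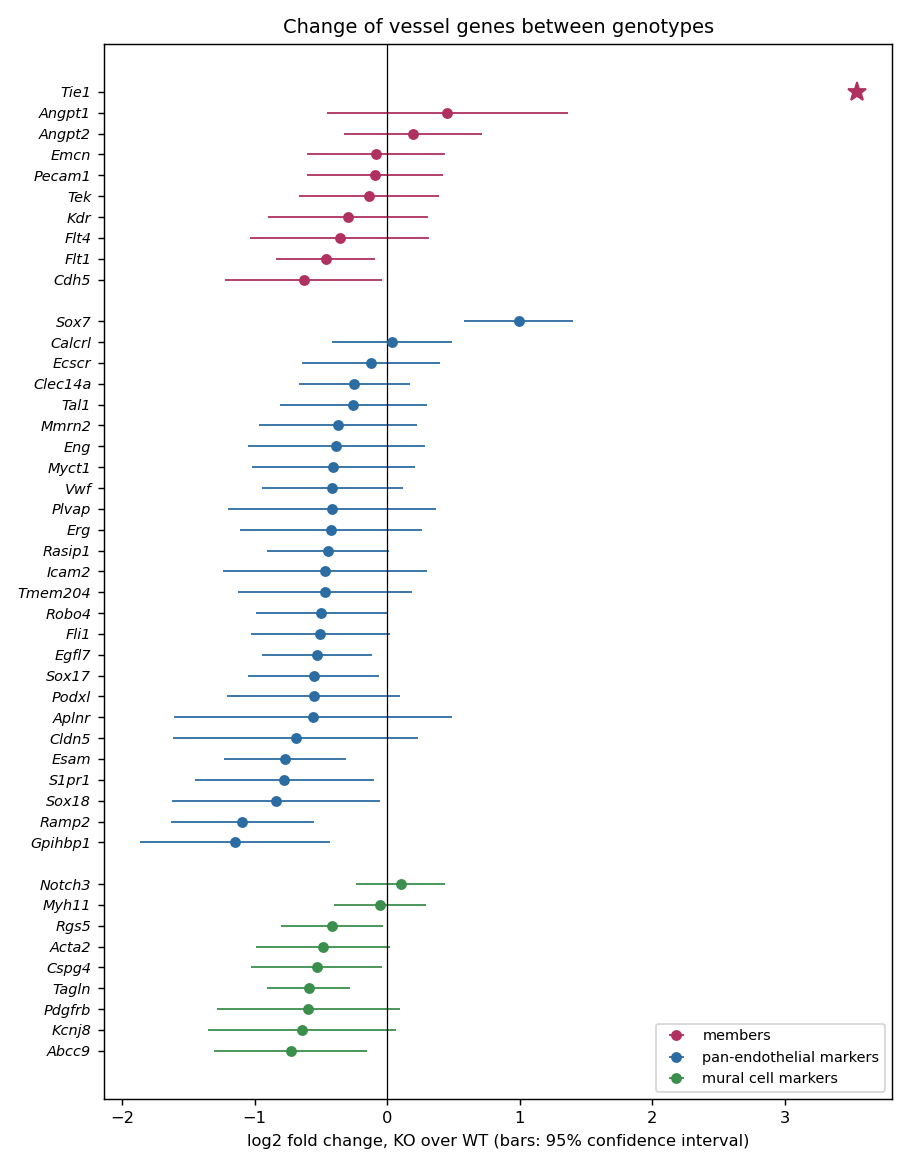
Log2 fold change of KO over WT (horizontal axis) for the 10 genes, the 26 pan-endothelial and the 9 mural cell markers, with points at the fitted value and bars for the 95% confidence interval. *Tie1*, a star without a bar because it was not tested, lies at 3.54, and the highest of the other genes is *Sox7* at 0.99.

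Levels of different genes were compared per kilobase of exon. In WT the order of mean CPM per kilobase was *Cdh5* at 10.97, *Pecam1* at 7.12, *Tie1* at 6.997 ± 1.13 (SD, n = 3), *Tek* at 4.98, *Flt1* at 3.41, *Kdr* at 3.23, *Flt4* at 2.46, *Emcn* at 1.61, *Angpt2* at 0.722 and *Angpt1* at 0.516. *Tie1* overlapped its neighbours *Pecam1* and *Tek* in this order. Neighbours did not overlap between *Cdh5* and *Pecam1*, *Kdr* and *Flt4*, and *Emcn* and *Angpt2*. In KO *Tie1* stood first at 81.6 ± 6.30 CPM per kilobase (SD, n = 3), and *Cdh5* followed at 7.09, *Pecam1* at 6.67, *Tek* at 4.53, *Kdr* at 2.63, *Flt1* at 2.47, *Flt4* at 1.92, *Emcn* at 1.52, *Angpt2* at 0.827 and *Angpt1* at 0.702. There the breaks without overlap came after *Tie1*, *Pecam1* and *Emcn*.

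The ratio of *Tie1* to another gene within a library does not depend on how libraries were scaled. These ratios per base of exon share the values of *Tie1* that picked the gene, and they are given as a description. *Tie1* to *Tek* ran from 1.20 to 1.87 in the WT libraries and from 14.9 to 24.4 in the KO libraries. *Tie1* to *Kdr* was nearly constant in WT, at 2.12 to 2.22, and spread from 20.5 to 48.8 in KO. *Tie1* to *Cdh5* ran from 0.581 to 0.679 in WT and from 7.35 to 16.04 in KO. *Tie1* was thus below *Cdh5* in each WT library and above it in each KO library. For all 9 genes the genotypes did not overlap, and the lowest KO ratio exceeded the highest WT ratio by between 4.10 times, for *Angpt1*, and 10.8 times, for *Cdh5*.

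**Figure D3:**
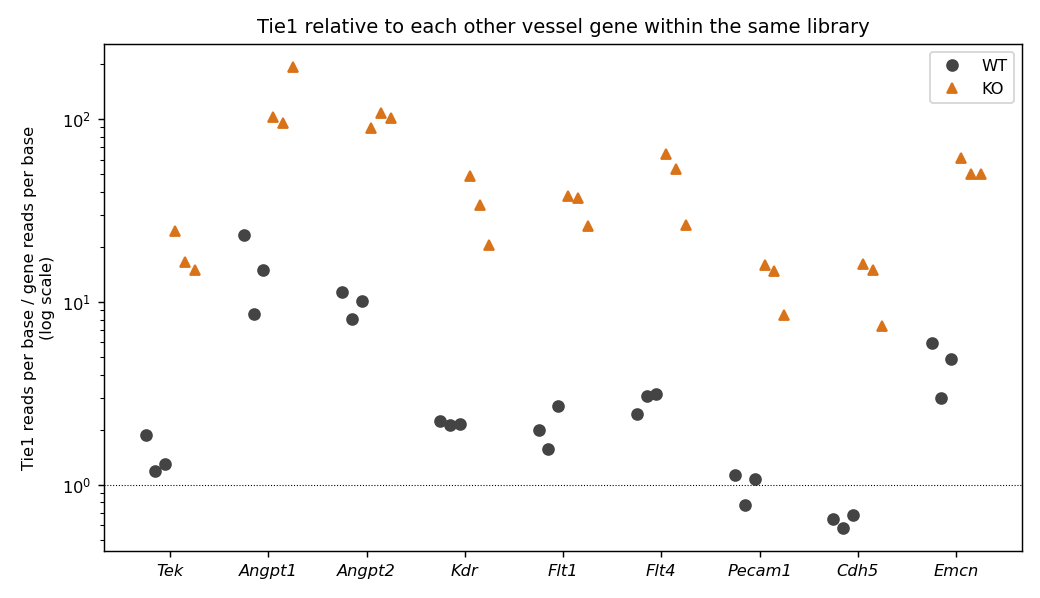
Reads per base of *Tie1* divided by reads per base of each of the 9 other genes in the same library (vertical axis, log scale), with circles for 3 WT and triangles for 3 KO libraries in replicate order, and a dotted line at equal levels. For *Tek* the WT libraries lie between 1.20 and 1.87 and the KO libraries between 14.9 and 24.4, and in no gene do the genotypes overlap.

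A wider list of 26 pan-endothelial markers showed whether other endothelial transcripts moved as *Tie1* did. The defining markers were all present and tested. edgeR's quasi-likelihood test called 1 higher and 1 lower in KO, against 4.38% and 2.09% of all tested genes. The log2 fold change was below 0 in 24 of 26, where 52.0% of all tested genes lay below 0, and the median was -0.47. At an unadjusted p under 0.05 there were 9 of 26, against 29.6% of all tested genes, and 8 were lower and 1 higher without overlap between genotypes, where 18.1% and 13.5% of all genes were. KO1 was below every WT library in 24 of these markers, KO2 in 23 and KO3 in 8. The share of all tested genes below every WT library in a single KO library was not computed, so these counts are a description.

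*Sox7*, a transcription factor of endothelium and other tissues, had 100, 65.0 and 88.2 CPM in WT and 152, 174 and 179 CPM in KO. All KO libraries lay above all WT libraries. It was the marker called higher (log2 fold change 0.99, standard error 0.18, adjusted p = 0.0175, edgeR), and the call was lost without WT replicate 3 (adjusted p = 0.0744) or KO replicate 2 (adjusted p = 0.0791). Its relatives *Sox17* and *Sox18* were at -0.56 (adjusted p = 0.135) and -0.84 (adjusted p = 0.150). *Ramp2*, a coreceptor for adrenomedullin in vessels, had 43.0, 38.1 and 41.7 CPM in WT and 13.9, 17.1 and 26.6 CPM in KO. All KO libraries lay below all WT libraries. It was the marker called lower (log2 fold change -1.09, standard error 0.23, adjusted p = 0.0355, edgeR), and the call was lost when any library other than KO replicate 3 was left out (adjusted p between 0.0802 and 0.185). *Ramp2* overlaps *Vps25* on the same strand. The lowest marker was *Gpihbp1*, which holds lipoprotein lipase on capillaries (-1.15, adjusted p = 0.0677). Without KO replicate 3, 20 of the 26 were called lower and 1 higher, where 16.2% of all tested genes were called lower and 33.0% in either direction.

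Of the 9 markers of mural cells, the pericytes and smooth muscle cells around vessels, 1 was called lower and none higher by edgeR's quasi-likelihood test. Of all tested genes it called 2.09% lower and 4.38% higher. At an unadjusted p under 0.05 there were 4 of 9, against 29.6% of all tested genes. Without overlap between genotypes 5 were lower and 0 higher, where 18.1% and 13.5% of all genes were. The marker called was *Tagln*, an actin-binding protein of smooth muscle (-0.59, standard error 0.14, adjusted p = 0.0437), which overlaps *Pcsk7* on the opposite strand. Its call was lost when any library other than KO replicate 3 was left out (adjusted p between 0.0924 and 0.221) and under 5 of the 10 other settings (adjusted p between 0.0507 and 0.0957). By log2 fold change 8 of 9 lay below 0, from *Abcc9*, a channel subunit of pericytes, at -0.73 (adjusted p = 0.105) to *Notch3* at 0.10 (adjusted p = 0.667), with a median of -0.53. Without KO replicate 3, 6 of the 9 were called lower, where 16.2% of all tested genes were. Of the 6 lymphatic markers the quasi-likelihood test called none and 1 had an unadjusted p under 0.05, against 6.47% and 29.6% of all genes. The markers ran from *Lyve1*, a hyaluronan receptor, at -0.57 (adjusted p = 0.164) to *Mmrn1* at 0.46 (adjusted p = 0.195). The exact test, DESeq2 and limma-voom called none of the 6. Without KO replicate 3 the quasi-likelihood test called 1 higher and 1 lower, against 33.0% of all tested genes in either direction.

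The summed levels of marker lists of the lip's tissues are given here, and their part in the results on vessel genes was not tested. The 26 pan-endothelial markers summed to between 551 and 661 CPM in WT and between 422 and 703 CPM in KO, the 6 lymphatic markers to between 109 and 126 and between 90.7 and 133, and the 9 mural markers to between 594 and 645 and between 420 and 569. The pan-endothelial sum includes *Sox7*, the marker called higher, while 24 of the 26 log2 fold changes lay below 0. The 6 keratinocyte markers summed to between 24119 and 28003 CPM in WT and between 36119 and 48682 CPM in KO, and none was called. They ran from *Col17a1* at -0.34 (adjusted p = 0.201) to *Krt1*, a keratin of the upper epidermis, at 1.18 (adjusted p = 0.0584). By log2 fold change 3 of the 6 lay above 0 and 3 below, with a median of 0.06, so the higher sum does not hold for each marker. The 8 skeletal muscle markers summed to between 13051 and 17812 CPM in WT and between 6152 and 10259 CPM in KO. All 8 were lower without overlap, where 18.1% of all tested genes were. Their log2 fold changes ran from *Acta1* at -1.29 (adjusted p = 0.0718) to *Myh4* at -0.66 (adjusted p = 0.129). *Tnnt3* was called (-1.01, adjusted p = 0.0397), where the quasi-likelihood test called 2.09% of all tested genes lower and 4.38% higher. The call of *Tnnt3*, which overlaps *Prr33* on the opposite strand, was lost under the replicate block (adjusted p = 0.0573) and when any library other than KO replicate 3 was left out (adjusted p between 0.0886 and 0.203).

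The 6 dermal fibroblast markers summed to between 6355 and 8325 CPM in WT and between 2730 and 6660 CPM in KO. None was called, and they ran from *Col1a1* at -0.85 (adjusted p = 0.240) to *Pdgfra* at -0.23 (adjusted p = 0.404). Cells that also hold vessel transcripts were checked with a list of megakaryocyte and platelet genes, since both cell types express *Pecam1* and platelets circulate. Of 7 such genes, 4 were tested and none was called. They ran from *Pf4* at -0.87 (adjusted p = 0.102) to *Gp1bb* at -0.24 (adjusted p = 0.542), and the 7 summed to between 40.0 and 49.1 CPM in WT and between 27.6 and 35.8 CPM in KO. *Gp9* and *Ppbp* were among those below the filter. Of the 8 blood and leukocyte genes in the table none was called, and they ran from the globin gene *Hbb-bt* at -0.76 (adjusted p = 0.341) to *Ptprc*, the CD45 gene, at 0.67 (adjusted p = 0.115). They summed to between 88.1 and 198 CPM in WT and between 80.6 and 151 CPM in KO. By the quasi-likelihood test, 2 keratinocyte, 8 muscle, 0 fibroblast, 1 platelet and 1 blood gene had an unadjusted p under 0.05. Of all tested genes 29.6% did, and 6.47% were called. edgeR's exact test and DESeq2 each called 2 keratinocyte genes higher, *Krt1* and *Krt10*, and 7 muscle genes lower, and limma-voom called 1 and 2. The exact test, DESeq2 and limma-voom called 14.9%, 14.2% and 6.3% of all genes they tested. The fibroblast genes gave no call by these 3 tools, *Pf4* was called lower by the exact test and *Ptprc* higher by DESeq2. Without KO replicate 3 the quasi-likelihood test called 8 muscle, 3 fibroblast and 1 platelet gene lower, and 1 keratinocyte and 1 blood gene higher, where it called 33.0% of all tested genes in either direction.

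**Figure D4:**
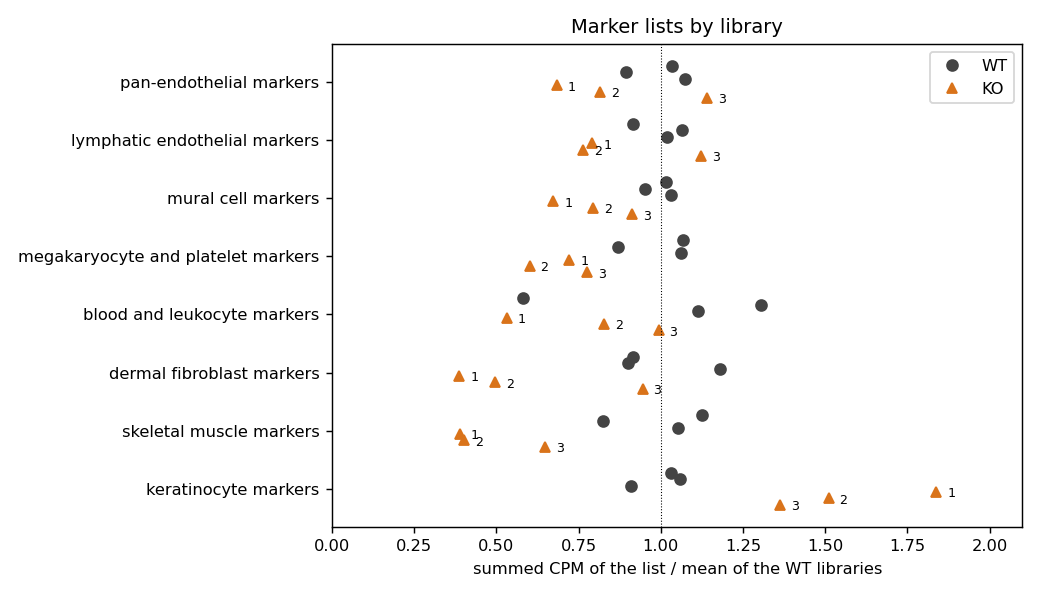
Summed CPM of each marker list in each library divided by the mean of the WT libraries (horizontal axis), with circles for 3 WT and triangles for 3 KO libraries, the latter numbered by replicate. The pan-endothelial sum of KO1 and KO2 lies below all WT libraries and that of KO3 above them. This sum includes *Sox7*, the marker called higher, while 24 of the 26 log2 fold changes lay below 0. All KO libraries lie above WT for the keratinocyte sum, although 3 of its 6 genes had a log2 fold change below 0. For muscle markers all KO libraries lie below WT.

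The genes around *Tie1* were read to see whether the chromosome region moved with it. The table held 12 genes whose whole annotated body lay within 200 kb of its ends, and 10 passed the filter on low counts. One of these, the pseudogene *Gm12859*, passed only through the KO libraries and is described below without a test. edgeR's quasi-likelihood test called none of the 9 others, against 6.47% of all tested genes, and 1 had an unadjusted p under 0.05, against 29.6%. edgeR's exact test and DESeq2 each called 1, *Ebna1bp2*, and limma-voom called none. The 9 lay between a log2 fold change of -0.49, in *Wdr65*, and 0.68, in *Ebna1bp2*, a ribosome assembly gene. *Ebna1bp2* had 28.3, 42.4 and 35.3 CPM in WT and 62.0, 57.8 and 50.3 CPM in KO (adjusted p = 0.0601). It was higher in KO without overlap and missed the threshold in the quasi-likelihood test, but passed it in the exact test (adjusted p = 0.0166), in DESeq2 (adjusted p = 0.0057), with no filter (adjusted p = 0.0470), without WT replicate 2 (adjusted p = 0.0473) and without KO replicate 3 (adjusted p = 0.0108). It missed it in the other settings (adjusted p up to 0.200). *Cdc20*, a cell cycle gene 33.8 kb downstream, was at 0.66 (adjusted p = 0.198), and *Tmem125*, 50.9 kb upstream, was at 0.37 (adjusted p = 0.288). *2610528J11Rik* (0.20, adjusted p = 0.552), *Med8* (0.14, adjusted p = 0.488), *Elovl1* (-0.15, adjusted p = 0.557) and *Hyi* (-0.16, adjusted p = 0.479) lay nearer to 0.

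*Gm12859* is a processed pseudogene on the minus strand of chromosome 4 from 118490782 to 118497642. It lies 721 bases upstream of the annotated *Tie1* start, on the same strand. It had no count in any WT library and 123, 130 and 54 counts in KO1, KO2 and KO3. The KO libraries lay at 4.35 ± 1.91 CPM (SD, n = 3), at least 35.1-fold higher than 3 counts in each WT library. Having no WT count, it could enter the tested genes only by being high in KO, so no test is given. Only 427 of the 6861 bases of its span are exon. Its exons align to *Tomm20*, a mitochondrial import gene, at 95% identity or more, so its reads are uncertain. *Tomm20* itself lay between 100 and 111 CPM in WT and between 110 and 116 CPM in KO (adjusted p = 0.617).

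Within 1000 kb, where genes that reach in only partly were counted too, the table held 57 genes, and 31 were tested apart from *Gm12859*. edgeR's quasi-likelihood test called 2 higher and 0 lower, where 4.38% and 2.09% of all tested genes were called. They were *Artn*, which passed the filter through the KO libraries where it was high, and *Slc2a1*. Both were named after their values were seen. edgeR's exact test called 3 higher and 1 lower, DESeq2 3 higher and 0 lower, and limma-voom 2 higher and 0 lower. These tools called 14.9%, 14.2% and 6.3% of the genes they tested. Without KO replicate 3 the quasi-likelihood test called 3 higher and 4 lower, against 33.0% of all tested genes in either direction. *Artn*, a ligand of the GDNF family, had 1.20, 0.723 and 0.944 CPM in WT and 7.62, 9.21 and 10.4 CPM in KO (log2 fold change 3.23, adjusted p = 0.000219, edgeR). Every KO library was far above every WT library. Only 1 WT library reached the filter's level, so *Artn* entered the tested genes by being high in KO, and its call carries that limit. With no filter the quasi-likelihood test also called *Artn* (adjusted p = 2.3e-05). *Slc2a1*, the glucose transporter GLUT1, had 66.9, 48.4 and 63.7 CPM in WT and 110, 86.7 and 108 CPM in KO (0.77, adjusted p = 0.0377, edgeR), again without overlap. Its call was lost when any library other than KO replicate 3 was left out (adjusted p between 0.0677 and 0.116).

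**Figure D5:**
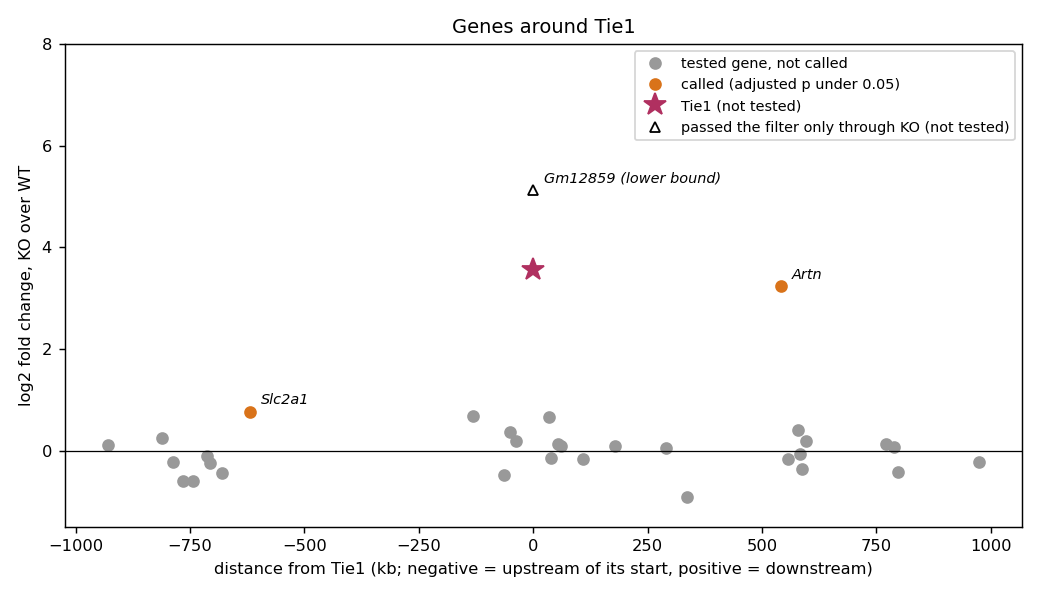
Log2 fold change of KO over WT (vertical axis) for genes within 1000 kb of *Tie1*, against their distance in kb (horizontal axis, negative upstream of its start). *Tie1* is drawn as a star at 3.54, *Gm12859*, which was not tested, as an open triangle at its lower bound of 5.13, and the called genes *Artn* and *Slc2a1* stand in orange above the others, which lie between -0.91 and 0.68.

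Over the 6 libraries, the 5 genes whose log2 CPM ran most like that of *Tie1* included *Gm8674*, *Slc14a2*, *Lrrn4* and *Echdc3*, and all 5 had Pearson correlations between 0.998 and 0.999. These correlations include the step between the genotypes that *Tie1* was picked for. The pseudogene *Gm8674* was at least 79.6-fold higher in KO than 3 counts in each WT library. *Slc14a2*, a urea transporter gene, had 0.109, 0.128 and 0.225 CPM in WT and 47.5, 55.4 and 53.5 CPM in KO. *Lrrn4* lay between 0.109 and 0.180 CPM in WT and between 62.1 and 107 CPM in KO, and *Echdc3* between 4.55 and 5.53 CPM in WT and between 86.2 and 126 CPM in KO. In none of these 4 did the genotypes overlap, where 31.5% of all tested genes did not. The choice by likeness to *Tie1* brings this with it, so it is no separate result.

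The 9 other vessel genes were set against *Tie1* in the same way. The Pearson correlation of log2 CPM with *Tie1* was 0.50 for *Angpt2*, 0.40 for *Angpt1*, -0.11 for *Emcn*, -0.19 for *Tek*, -0.25 for *Pecam1*, -0.47 for *Kdr*, -0.50 for *Flt4*, -0.74 for *Cdh5* and -0.86 for *Flt1*. These values describe 6 libraries that share the same step between genotypes and carry no test.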

How the data were processed

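RNA-Seq counts of top lip from 3 KO and 3 WT mice, each giving 1 library, were analysed. Alignment to GRCm38 by the authors used TopHat2 2.0.8 and Bowtie2 2.1.0 on paired-end reads, and the deposited values are whole-number counts of reads that HTSeq assigned uniquely to each gene symbol, without normalization. Whether counting used strand is not given in the sources used here. Reads shared between similar genes are lost by unique assignment, which lowers the counts of both. All 6 columns were used (0 left out), and 0 entries named no gene.

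Genes were kept at 1 CPM or more in 3 or more libraries and tested in R 4.3.3 with edgeR 4.0.16 (TMM factors, estimateDisp, glmQLFit with legacy=FALSE, glmQLFTest). P-values were adjusted by Benjamini-Hochberg over the 15009 genes kept, and 0.05 was the threshold. CPM values are edgeR's. Intervals based on 3 counts cover counting error only. The totals of 20164081 to 29491767 counts set the precision of low genes. Alternatives were edgeR's exact test, DESeq2 1.42.0, limma-voom (limma 3.58.1), the older quasi-likelihood fit, scaling by upper quartile, by DESeq2 size factors or by library size alone, no filter, at least 10 counts in every library, a replicate block, and each library left out. The same settings were run on 24 named genes outside the 10, a choice made after seeing the data. The procedure was tested on simulated data.

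The 10 genes and the marker lists were chosen with earlier results of these data known. Named genes were the 10, *Gtf2ird1*, and the called genes and the highest and lowest of each list. Also named were the tested genes lying wholly within 200 kb of *Tie1* and the 5 most like it. Likeness was the Pearson correlation of log2 CPM (prior count 2). *Artn*, *Slc2a1*, *Tomm20*, *Sox17* and *Sox18* fell outside this rule and were named after their values were seen. Positions came from GENCODE vM21 (GRCm38), in which 26054 of 26814 symbols were found, 1252 of them through an older symbol. Upstream sequences came from RefSeq. Figures were drawn with matplotlib 3.10.9 in Python 3.11.15. Protein sequences were not used here. Some genes that the rule names are not reported here.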

Additional observations from a re-analysis of the deposited data

How the results depend on the processing

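Across the 10 other settings *Tie1* kept a log2 fold change between 3.49 and 3.59, and 0 of the 9 other genes were called in each. With libraries left out in turn, between 0 and 4 of the 9 were called, 4 only without KO replicate 3. Of the 144 fits of these 9 genes, 133 kept sign and side of the threshold, 4 passed it (all without KO replicate 3) and 7 changed sign. The left-out values ran from -0.33 to 0.067 for *Tek*, -0.37 to 0.088 for *Pecam1* and -0.29 to 0.17 for *Emcn*. The changes of sign were *Tek* at 0.067 without WT replicate 3 and 0.062 without KO replicate 1, *Pecam1* at 0.026 without WT replicate 2, 0.083 without KO replicate 1 and 0.088 without KO replicate 2, and *Emcn* at 0.17 without WT replicate 2 and 0.019 without KO replicate 1. The 26 pan-endothelial markers gave 2 calls in the reported fit, 4 under the exact test, 4 under DESeq2's Wald test, and between 0 (without WT replicate 3 or KO replicate 2) and 21 (without KO replicate 3) with a library left out. The 9 mural markers gave 1 call in the reported fit, 2 under the exact test, 0 under DESeq2 size factors, library size alone, no filter, at least 10 counts in every library and the replicate block, and between 0 and 6 with a library left out, 6 without KO replicate 3. Of the genes each tested, the reported fit called 6.47%, the exact test 14.9%, DESeq2's Wald test 14.2% and the fit without KO replicate 3 33.0%. The cause of the shifts between settings was not tested.

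Over all genes, 657 were called higher and 314 lower. The exact test gave 1165 and 1073, DESeq2's Wald test 1511 and 898, DESeq2 size factors 662 and 207, no filter 915 and 204, and at least 10 counts in every library 494 and 204. Replicate numbers were shared by the labels only as numbers. Deviations from the genotype means correlated at -0.19, 0.29 and 0.31 for replicates 1, 2 and 3. Libraries of unlike number were not compared, so these values cannot decide on pairing. As the labels name no pairing, the samples were not taken as paired. A fit with the replicate block called 580 genes higher and 217 lower, 0 of the 9 vessel genes and 2 pan-endothelial markers. With 3 mice per genotype, the 95% confidence intervals of the 9 vessel genes reached a ratio of up to 2.57, for *Angpt1*.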
